A study of Mus musculus with 27 samples.

Results

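The G1 cyclins and their kinases were described as 8 genes, Ccnd1, Ccnd2, Ccnd3, Ccne1, Ccne2, Cdk2, Cdk4 and Cdk6, chosen by gene symbol, by a rule that reads no measured value, with earlier results of these data known. They are 8 of the 23420 mouse genes in each of 3 deposited tables that compare cells transfected with an siRNA against Tbx2 (siTbx2) with cells transfected with a control siRNA (siCtrl). Tbx2 encodes a T-box transcription factor, and the comparison asked which genes depend on it in melanoma cells.

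RNA was taken from B16 cells, a mouse melanoma line, and from B16-Tbx2-3xHA cl#02 and cl#09 (here clone 2 and clone 9), which carry an HA tag on their own Tbx2 gene and are each a single clone. Each line was left untransfected, given siCtrl or given siTbx2, with 3 samples per condition, 9 groups and 27 samples in all. The 18 siRNA samples were collected 48 h after transfection, and RNA was sequenced from the 3′ ends of transcripts. The tables give, per gene, a mean normalized count that is the same in all of them, and per line a log2 fold change with its standard error (SE) and an adjusted p from the authors' DESeq2 Wald test. They give no value for a single sample, so the depth of each library and the spread between replicates of a line are not known here. The SE of a gene could be nearly the same in every line, as for Ccnd1 at 0.20. The study's methods do not state whether an SE reflects the replicates of its own line alone or a spread pooled over lines. The means, identical in all tables, point to a common fit of all lines with a pooled spread. An SE or adjusted p given here for a line is therefore not a measure of the replicate spread of that line alone. Tbx2 mRNA itself stood at 12.8% of the siCtrl level in parental B16, 20.8% in clone 2 and 21.8% in clone 9. All 7 melanocyte lineage markers looked at had mean normalized counts between 294 and 48045, while the leukocyte, epithelial, endothelial and fibroblast markers were at 2.23 or below.

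Entry of a resting or newly divided cell into DNA synthesis is governed by 2 sets of cyclins. The D cyclins accumulate when growth factor signals arrive and activate Cdk4 and Cdk6, which begin to phosphorylate the retinoblastoma protein. The E cyclins come later in G1 and activate Cdk2, which completes that phosphorylation, releases the E2F factors and helps to fire replication origins. Because Ccne1, Ccne2 and Cdk2 are themselves transcribed under E2F, the E cyclin branch feeds back on itself, whereas transcription of the D cyclins answers mainly to upstream signalling. In melanoma the D cyclin and Cdk4 branch is often altered, and its kinases are drug targets.

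The siRNA and its matches among the 8 genes are shown first, since a small RNA can lower transcripts other than its target through bases 2 to 8 of its guide strand (the seed). The capitals mark the seed in the guide of the siRNA named for parental B16, and in the 3′ UTR sites the 7 bases that pair with it. For clone 2 and clone 9 the sources used here name no siRNA number.
Tbx2 siRNA guide: aGAAAUUUgcaucaaaucc
Tbx2: gatttgatgcAAATTTCtgttcgagag
Ccnd2: tttactgcttAAATTTCaagtcccgag
Ccne2: tacactaaatAAATTTCtgtatgctta
The Tbx2 site is the intended target, at chr11:85841243-85841249 on the plus strand (GRCm38, GENCODE vM21). The Ccnd2 site lies at chr6:127128496-127128502 on the minus strand, 1833 bases after the stop codon in a 3′ UTR of 5173 bases. The Ccne2 site lies at chr4:11204755-11204761 on the plus strand, 1657 bases after the stop codon in a 3′ UTR of 1681 bases. The other 6 genes had 0 such sites, including Cdk6 with the longest 3′ UTR of the set (10217 bases). Of the 10519 genes searched, 14.1% held at least 1 site, in 3′ UTRs with a median length of 1224 bases. Both Ccnd2 and Ccne2 were called lower in parental B16 and in clone 9 and were not called in clone 2. A match of 7 bases is a description of sequence, and the part of the seed in these values was not tested.

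In parental B16, 2 of the 8 genes rose, against 18.5% of all 11621 genes tested, and 4 fell, against 18% of all genes. In clone 2, 2 rose where 15% of 12023 genes did, and 2 fell where 14.2% did. In clone 9, 2 rose where 13.4% of genes did, and 4 fell where 14.7% did. Here a gene rose or fell if its adjusted p was under 0.05, and all 8 genes passed the authors' filter on low means in every line. The 3 genes called in all lines were Ccne1, Cdk2 and Cdk4, the 3 called in a pair of lines were Ccnd1, Ccnd2 and Ccne2, Ccnd3 was called in 1, and Cdk6 in 0. None was called in opposite directions in different lines. The median log2 fold change over the 8 genes was -0.31 in parental B16, -0.20 in clone 2 and -0.39 in clone 9, beside 0.02, 0.03 and 0.03 over all tested genes. In these bulk samples, fewer cells in a given phase of the cell cycle and less mRNA per cell cannot be told apart. Nor can loss of Tbx2 be told apart from other effects of the siRNA within these comparisons.

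**Figure D1:**
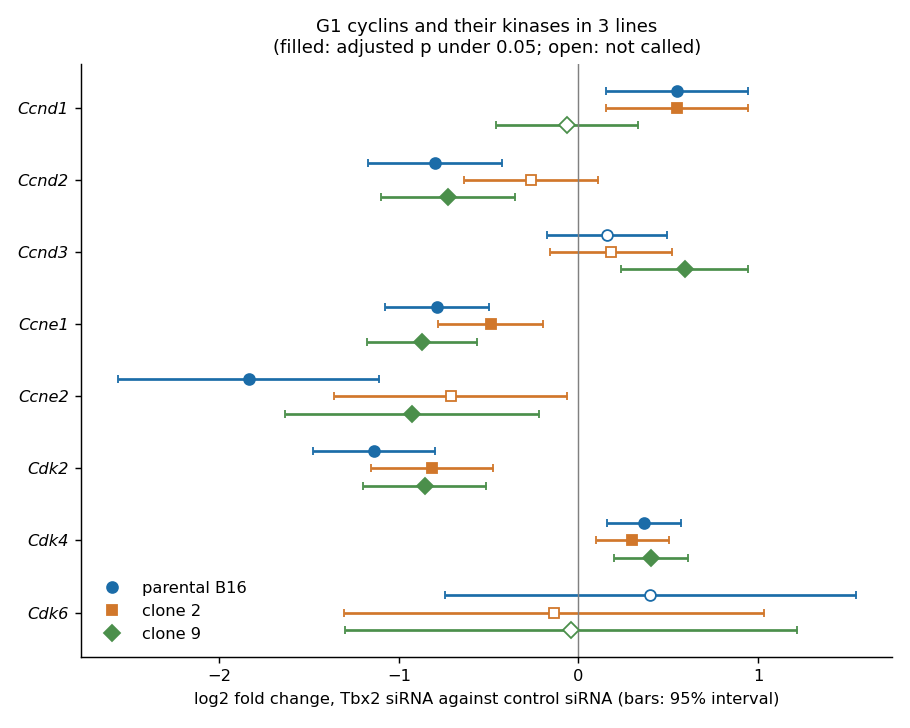
Log2 fold change (x axis, siTbx2 against siCtrl) of each of the 8 genes (y axis) in parental B16, clone 2 and clone 9, with 95% intervals as bars; filled symbols have an adjusted p under 0.05. Ccne1 and Cdk2 sit below 0 and Cdk4 sits above 0 in every line, while Cdk6 has intervals that cross 0 and span more than 2 log2 units.

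Of the 3 D cyclins, which share Cdk4 and Cdk6 as partners, Ccnd1 and Ccnd3 rose where they were called and Ccnd2 fell where it was called. Ccnd1, the D cyclin most often linked to cancer and a target of MAP kinase and Wnt signalling, had a mean normalized count of 2191. It rose in parental B16 by a log2 fold change of 0.55 (SE 0.20, adjusted p = 0.0212), which is 146% of the siCtrl level with a 95% interval of 111% to 192%. In clone 2 it rose by the same log2 0.55 (SE 0.20, adjusted p = 0.0261). In clone 9 its log2 fold change was -0.06 (SE 0.20, adjusted p = 0.863), with an interval of -0.46 to 0.33. The gene was therefore called higher in parental B16 and clone 2, and the clone 9 interval still reaches above the lower ends of the other intervals, at 0.15 in each. Ccnd1 lies at chr7:144929931-144939925 on the minus strand.

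Ccnd2, a D cyclin that growth factors and Myc induce in many cell types, went the other way. At a mean normalized count of 3182, it fell in parental B16 to 57.5% of siCtrl (log2 -0.80, SE 0.19, adjusted p = 0.000192). In clone 9 it fell to 60.5% (log2 -0.73, SE 0.19, adjusted p = 0.00106). In clone 2 it stood at 83.2% of siCtrl (log2 -0.27, SE 0.19, adjusted p = 0.309), with a 95% interval of 64.2% to 108%. The clone 2 interval thus holds no change, and its lower end stops short of the estimates in the other lines. Ccnd2 lies at chr6:127125162-127152193 on the minus strand.

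Ccnd3, the D cyclin best known from lymphoid and muscle cells, had a mean normalized count of 109. It rose in clone 9, to 151% of siCtrl (log2 0.59, SE 0.18, adjusted p = 0.00627). In parental B16 its log2 fold change was 0.16 (SE 0.17, adjusted p = 0.495) and in clone 2 it was 0.18 (SE 0.17, adjusted p = 0.470). The estimates in all lines were above 0, and their mean weighted by precision was 0.30, with an interval of 0.10 to 0.50. The same weighted mean for Ccnd1, with its clone 9 estimate of -0.06 included, was 0.35, with an interval of 0.12 to 0.57. Intervals of these means take 1 response as common to the lines and leave out the spread between lines. For Ccnd1 the weighted mean therefore does not show a rise in every line. Ccnd3 lies at chr17:47505051-47599691 on the plus strand. The clone 9 rise in Ccnd3 and the rises in Ccnd1 were thus called in different lines, with tests of the differences between lines given after the kinases.

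The E cyclins fell, Ccne1 in all lines and Ccne2 in parental B16 and clone 9. Ccne1, a cyclin whose gene E2F factors induce late in G1, had a mean normalized count of 327 and fell in all lines. It stood at 58.0% of siCtrl in parental B16 (log2 -0.79, SE 0.15, adjusted p = 1.29e-06). In clone 2 it was at 71.3% (log2 -0.49, SE 0.15, adjusted p = 0.00592), and in clone 9 at 54.8% (log2 -0.87, SE 0.16, adjusted p = 5.9e-07). The smallest fall was that of clone 2, and its interval of -0.78 to -0.20 overlaps those of the other lines. Ccne1 lies at chr7:38097984-38107534 on the minus strand.

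Ccne2, a close relative that also binds Cdk2, had the largest fall of the 8 genes in parental B16, at a mean normalized count of 37.1. It stood there at 28.0% of siCtrl, with a 95% interval of 16.9% to 46.3% (log2 -1.84, SE 0.37, adjusted p = 6.99e-06). In clone 9 it fell to 52.7% (log2 -0.93, SE 0.36, adjusted p = 0.0395). In clone 2 the value was 61.1% (log2 -0.71, SE 0.33, adjusted p = 0.0923), an estimate below 0 that did not pass the threshold. The clone 9 call was lost when p-values were adjusted over every gene with a p-value (adjusted p = 0.0686). Ccne2 lies at chr4:11191351-11204779 on the plus strand.

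Among the kinases, Cdk2 fell and Cdk4 rose in all lines. Cdk2, the partner of the E cyclins and later of cyclin A, had a mean normalized count of 1462. It stood at 45.4% of siCtrl in parental B16 (log2 -1.14, SE 0.17, adjusted p = 9.79e-10). In clone 2 it was at 56.8% (log2 -0.82, SE 0.17, adjusted p = 3.16e-05), and in clone 9 at 55.3% (log2 -0.86, SE 0.17, adjusted p = 1.3e-05). The upper ends of its 95% intervals were 57.4%, 71.8% and 70.0% of siCtrl, well under the control level in each line. Cdk2 lies at chr10:128697939-128705031 on the minus strand.

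Cdk4, the D cyclin kinase that the p16 inhibitor blocks, changed by less and with the smallest SE of the set. At a mean normalized count of 634, it rose to 129% of siCtrl in parental B16 (log2 0.37, SE 0.10, adjusted p = 0.00216). In clone 2 it rose to 123% (log2 0.30, SE 0.10, adjusted p = 0.0179), and in clone 9 to 132% (log2 0.40, SE 0.10, adjusted p = 0.000951). The weighted mean over lines was 0.36, with an interval of 0.24 to 0.48, so the rise was repeatable in direction and small in size. Cdk4 lies at chr10:127063534-127067920 on the plus strand.

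Cdk6, the second kinase of the D cyclins, was close to the limit of measurement, with a mean normalized count of 7.66. Its log2 fold change was 0.40 in parental B16 (SE 0.58), -0.13 in clone 2 (SE 0.60) and -0.04 in clone 9 (SE 0.64). The adjusted p was 0.635, 0.893 and 0.975 in the same order. At these SEs a log2 fold change would have had to reach 1.38, 1.46 or 1.57 to be called. A change in Cdk6 of the size seen for any of the other kinases was not detectable at this depth. Cdk6 lies at chr5:3341485-3531008 on the plus strand.

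The lines share no control samples, and the response of each gene could be compared between them. A chi-square test of equal log2 fold changes in the 3 lines called 1 gene of 11621 after Benjamini-Hochberg adjustment, 0.00861% of those tested, and 563 had an unadjusted p under 0.05. The gene called was Fgfrl1, which is named because it was the single one and after its values were seen. Of the 8 G1 genes, 0 passed, with an adjusted p of 0.9998 for each, and 1, Ccnd1, had an unadjusted p under 0.05. The chi-square statistic was 6.11 for Ccnd1, 5.54 for Ccne2, 4.59 for Ccnd2, 3.74 for Ccnd3 and 3.51 for Ccne1. It was lowest for the kinases, at 2.06 for Cdk2, 0.494 for Cdk4 and 0.468 for Cdk6. The SEs of Cdk6 were 0.58 in parental B16, 0.60 in clone 2 and 0.64 in clone 9. Its low statistic therefore does not show that the lines responded alike.

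Pair by pair, the Ccnd1 response was higher in parental B16 than in clone 9 by 0.61 on the log2 scale (95% interval 0.05 to 1.17, adjusted p = 0.999 by a normal test adjusted over all genes). The difference between clone 2 and clone 9 was also 0.61 (interval 0.05 to 1.17, adjusted p = 0.697). For Ccne2, parental B16 minus clone 2 was -1.12 (interval -2.10 to -0.15, adjusted p = 0.9997). For Ccnd2 the same difference was -0.53 (interval -1.06 to -0.0036, adjusted p = 0.9997). For Ccnd3, parental B16 minus clone 9 was -0.43 (interval -0.92 to 0.05, adjusted p = 0.999). No pair of lines gave a call for any of the 8 genes after adjustment, although the intervals of the Ccnd1, Ccne2 and Ccnd2 differences leave out 0. A gene called in one line and not in another, such as Ccnd1 or Ccnd3, is therefore not shown to have responded differently there. The intervals leave room for differences of 1 log2 unit or more in Ccnd1, Ccnd2, Ccne2 and Cdk6. For Cdk6 the interval of clone 2 minus clone 9 was -1.81 to 1.62. The closest agreement was in Cdk4, whose largest difference between lines was -0.10, with an interval of -0.39 to 0.19.

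**Figure D2:**
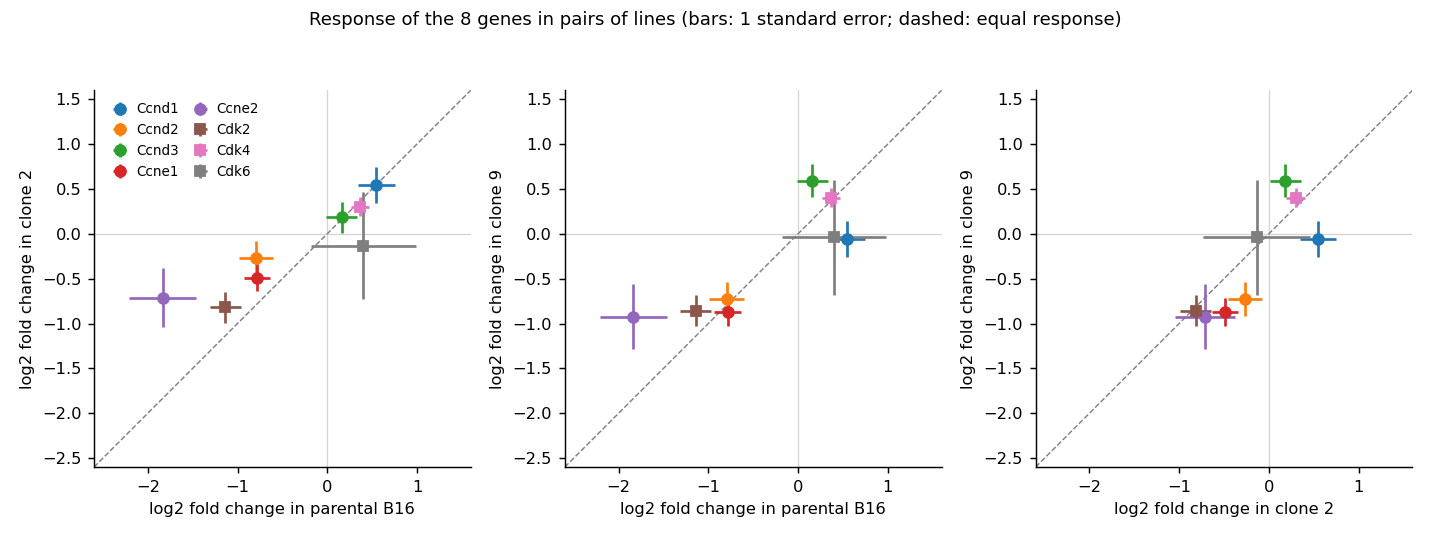
Log2 fold change of the 8 genes in 1 line (x axis) against another (y axis) for each pair of lines, with 1 SE as bars and a dashed line of equal response; cyclins are circles and kinases squares. Ccne2 lies above the dashed line in both panels with parental B16 on the x axis (-1.84 against -0.71 and -0.93), and Ccnd1 lies below it in both panels with clone 9 on the y axis.

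The precision behind these values differed among the genes. Each SE was set beside those of the 200 tested genes with the nearest mean normalized counts. For Ccnd1 in parental B16 94% of such genes had a lower SE, for Ccnd2 94.5% and for Cdk2 88%. The SE of Ccnd1, 0.20, compares with a median of 0.11 among its neighbours. Ccne2 also stood high, with 94.5% of its neighbours lower in parental B16, 86.5% in clone 2 and 86% in clone 9. Cdk4 and Ccnd3 were on the precise side, with 25.5% and 24.5% of their neighbours lower in parental B16, and Ccne1 was at 66%. A log2 fold change of 0.25 was enough for a call in Cdk4 in parental B16, whereas 0.48 was needed in Ccnd1 and 0.87 in Ccne2.

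**Figure D3:**
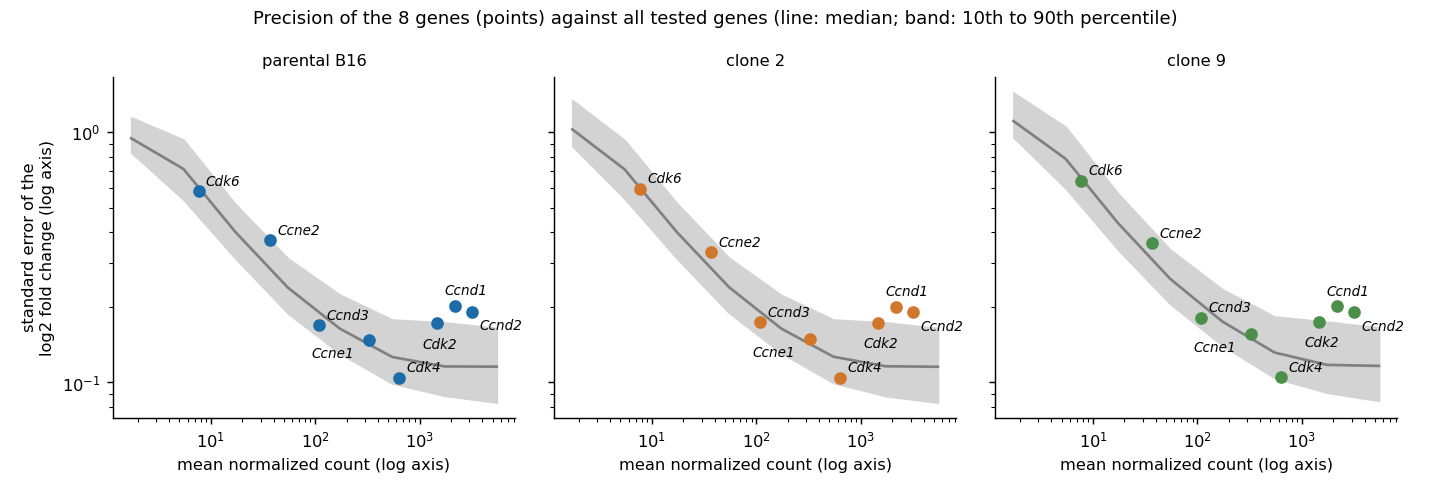
SE of the log2 fold change (y axis, log scale) against the mean normalized count (x axis, log scale) for the 8 genes as points in each line, over all tested genes as a grey line (median) and band (10th to 90th percentile). Ccnd1, at an SE of 0.20, and Ccnd2, at 0.19, lie above the band in every line, Cdk4 lies in its lower part at 0.10, and Cdk6 has an SE of 0.58 or more.

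Because only 3′ ends were sequenced, a gene on the opposite strand that shares the last exon could affect the count if strand was not used. Reads in the shared bases could then be counted for both genes or for neither. No source used here states the strand setting, and the study's methods do not say how shared reads were treated. Of the 8 genes, 4 shared bases with a gene on the other strand within the last 500 bases of their transcript. Ccnd1 shared 818 exonic bases, covering all of its last 500, with Oraov1 (named LTO1 in the annotation, a factor for maturation of a ribosome recycling protein). Oraov1 rose in all lines, by a log2 fold change of 1.20 in parental B16 (SE 0.19, adjusted p = 4.34e-09), 0.70 in clone 2 (SE 0.18, adjusted p = 0.00107) and 0.67 in clone 9 (SE 0.19, adjusted p = 0.00351). It was thus higher in clone 9, where Ccnd1 was not called. Its mean normalized count was 123, beside 2191 for Ccnd1, and its part in the Ccnd1 values was not tested.

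The other 3 overlapping neighbours were not called in any line. Tspan31, a tetraspanin gene that covers the last 500 bases of Cdk4, had log2 fold changes of -0.23, -0.17 and -0.12 in parental B16, clone 2 and clone 9, opposite in sign to those of Cdk4. Bysl, a ribosome assembly gene that shares 361 bases with Ccnd3, had -0.28, 0.02 and -0.15. Ints8, an Integrator subunit gene that shares 304 of the last 500 bases of Ccne2, had 0.07, -0.11 and -0.19. Ccne2 therefore fell in parental B16 and clone 9 beside a neighbour that was not called, at mean normalized counts of 37.1 and 23.2. Cdk2 shared only 34 exonic bases with Pmel, a melanosome gene, and none of them in its last 500 bases. Ccne1 shared none.

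**Figure D4:**
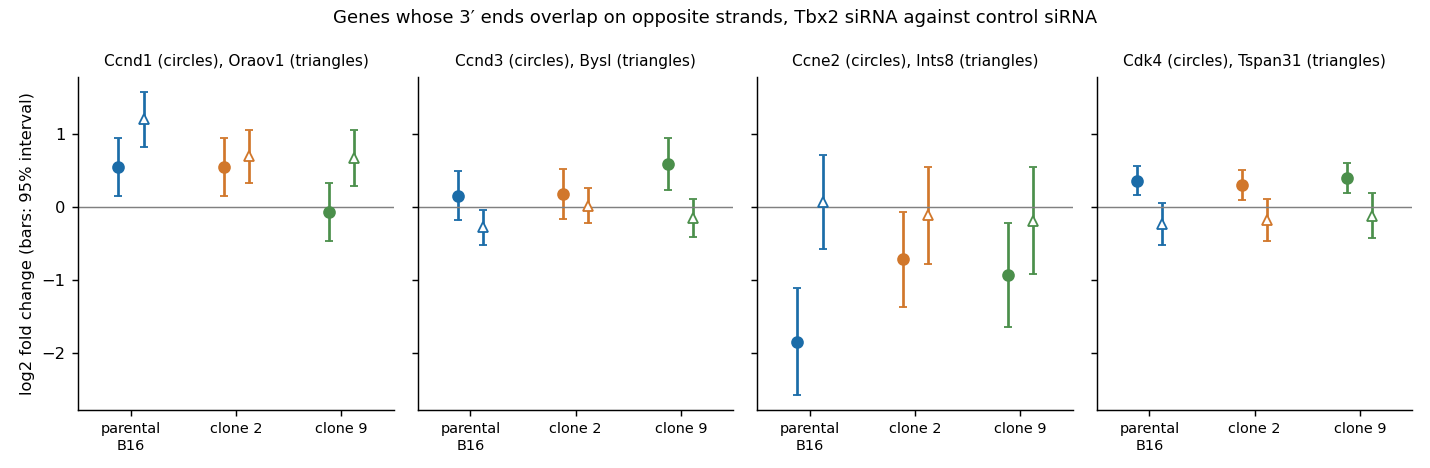
Log2 fold change (y axis, siTbx2 against siCtrl) in the 3 lines (x axis) for the 4 genes of the set (circles) and the opposite-strand genes that overlap their 3′ ends (open triangles), with 95% intervals as bars. Oraov1 is above 0 in every line while Ccnd1 is at -0.06 in clone 9, and Tspan31 is below 0 where Cdk4 is above it.

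The promoters of the 2 kinases called in all lines are shown because these genes moved in opposite directions. The windows run over the 250 bases before the RefSeq start site (GRCm38.p6). Promoter windows were matched for 5 of the 8 genes, and Ccnd1, Ccnd2 and Ccne2 had none in the table. Motifs were searched on both strands in the windows of these genes and in those of all genes, which run 250 bases before the start to 50 after it. Capitals mark the E-box CACGTG in Cdk4, and in Cdk2 an E2F-type match (GCGGGAAA) followed by the CCAAT box.
Cdk4 promoter, chr10:127063285-127063534, plus strand: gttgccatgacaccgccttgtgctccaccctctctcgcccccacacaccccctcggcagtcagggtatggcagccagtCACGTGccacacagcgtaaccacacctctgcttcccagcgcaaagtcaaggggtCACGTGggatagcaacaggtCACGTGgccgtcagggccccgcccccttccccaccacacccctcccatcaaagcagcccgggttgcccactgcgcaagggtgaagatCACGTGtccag
Cdk2 promoter, chr10:128705052-128705301, minus strand: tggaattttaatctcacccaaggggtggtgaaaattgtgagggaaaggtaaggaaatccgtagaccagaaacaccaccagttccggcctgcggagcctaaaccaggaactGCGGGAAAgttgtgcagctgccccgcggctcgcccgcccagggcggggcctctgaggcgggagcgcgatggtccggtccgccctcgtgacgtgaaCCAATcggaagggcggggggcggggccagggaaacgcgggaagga
The Cdk4 window held 4 E-boxes, with their first bases at -172, -118, -98 and -11 from the start. CACGTG is bound by Myc with its partner Max, by Mitf and by the Usf factors. Of 32851 promoter windows, 7.15% held at least 1 E-box and 8 windows, or 0.0244%, held 4 or more. The cut-off of 4 is the count found in Cdk4 and was used for no other motif, so this share does not measure how unusual the window is. Cdk6 held 1 E-box, at -220. The E2F-type match in Cdk2 stood at -140, and 2.26% of windows held at least 1 of the forms searched (TTTCCCGC, TTTCGCGC, TTTGCCGC or TTTGGCGC). CCAAT was common, in 37.4% of windows, and stood at -45 in Cdk2 and at -108 in a Ccnd3 window. The Ccne1 window held 0 matches to any of the motifs searched. The T-box recognition letters TCACACCT were in no window of the 5 genes and in 419 of the 32851. These matches are letters in a window and no measure of binding.

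The rest of the G1 machinery and some genes of later phases were described through 53 further genes in 6 lists. The last list holds the cyclins and kinase of later phases, and its 5 genes, which fell in each line, are included in the counts and medians that follow. In parental B16, 9 of 48 tested genes rose and 17 fell, in clone 2 7 of 50 rose and 13 fell, and in clone 9 6 of 50 rose and 16 fell. Over all tested genes 18.5% rose and 18% fell in parental B16, 15% and 14.2% in clone 2, and 13.4% and 14.7% in clone 9, so the share of listed genes that rose was near that of all genes. The median log2 fold change of the listed genes was -0.09, -0.10 and -0.18 in the same order, beside 0.02, 0.03 and 0.03 over all genes. They are described by role, and the genes named are those called the same way in all lines unless said otherwise.

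Some of the pocket proteins and E2F factors fell, while others rose or were not called. Of 13 pocket proteins and E2F or DP factors, 5 fell in each line, and 2, 1 and 2 rose in parental B16, clone 2 and clone 9. Over all genes 18%, 14.2% and 14.7% fell and 18.5%, 15% and 13.4% rose, so the number that rose was no more than near the background. E2f1, an activator of S phase genes, had log2 fold changes of -1.71 (SE 0.20), -1.24 (SE 0.20) and -1.59 (SE 0.22) in parental B16, clone 2 and clone 9. E2f2, a second activator, had -1.70, -0.85 and -2.37, and E2f8, a repressor of the same family that E2F1 induces, had -1.80, -1.53 and -0.91. Rbl1, which encodes the pocket protein p107, had -1.05, -1.07 and -1.03. The adjusted p of these 4 genes was at most 0.0211 in every line. Others of the family rose: E2f5, a partner of the pocket proteins, had 0.75, 0.59 and 0.998 in parental B16, clone 2 and clone 9 and was called in each. E2f3, an activator like E2f1, rose in parental B16 (0.66, adjusted p = 0.00164) and clone 9 (0.74, adjusted p = 0.00154) and had 0.42 in clone 2 (adjusted p = 0.0682). E2f3 and E2f5 are named after their values were seen. Rb1, which encodes the retinoblastoma protein, was not called in any line.

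Among 8 inhibitors of the kinases, 6 were tested. In parental B16 2 rose and 2 fell, where 18.5% and 18% of all genes did, in clone 2 2 rose and 1 fell, where 15% and 14.2% did, and in clone 9 1 rose and 2 fell, where 13.4% and 14.7% did. A single call among 6 genes is about the background share. One of the falls in parental B16 was that of Cdkn1c, named after its values were seen, at a mean normalized count of only 4.58. Its log2 fold change there was -3.51 (SE 1.40, adjusted p = 0.0352), and it was not called in clone 2 or clone 9. Cdkn1b, which encodes p27, an inhibitor of cyclin E and Cdk2, rose by 0.99 (SE 0.18), 0.67 (SE 0.18) and 0.69 (SE 0.18) in parental B16, clone 2 and clone 9. Cdkn2d, which encodes the INK4 family inhibitor p19, a block on Cdk4 and Cdk6, fell instead, with -1.37, -1.24 and -1.25. Cdkn1a, which encodes p21 and is named after its values were seen, rose in parental B16 (1.61, adjusted p = 1.62e-06) and clone 2 (1.58, adjusted p = 3.77e-06) and had 0.63 in clone 9 (adjusted p = 0.108). Cdkn1a and Ccnd1 were both called in parental B16 and clone 2, and a link between them was not tested. Cdkn2a and Cdkn2b, the genes of p16 and p15, were at mean normalized counts of 0.571 and 0.212 and were not tested.

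Of 10 subunits of the ubiquitin ligases that turn over the cyclins or p27, parental B16 had 1 higher and 1 lower, clone 2 had 2 higher and 1 lower, and clone 9 had 1 higher and 2 lower. These counts are close to or under the shares of all genes, 18.5% higher and 18% lower, 15% and 14.2%, and 13.4% and 14.7% in the same order. Skp2, the subunit that targets p27 for destruction, fell in all lines, with log2 fold changes of -0.92, -0.80 and -1.16 in parental B16, clone 2 and clone 9. Fbxw7, the subunit that targets cyclin E, rose by 0.53, 0.43 and 0.41. Of the positive regulators of the kinases, 1 of 7 rose and 3 fell in parental B16, 1 of 8 rose and 1 fell in clone 2, and 0 of 8 rose and 2 fell in clone 9. With 15% of all genes higher and 14.2% lower in clone 2, the counts there are at the background, and the 3 of 7 that fell in parental B16 stand beside 18%. Cdc25a, the phosphatase that removes inhibitory phosphate from Cdk2, fell in all lines, with -1.01, -0.69 and -1.29. In all lines Skp2 mRNA was thus lower and Cdkn1b mRNA higher, and Fbxw7 mRNA was higher and Ccne1 mRNA lower. Skp1a, Cul1 and Rbx1, also among the ligase subunits, were not called in any line. These data hold no protein values, and a link between these genes was not tested.

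Of the inducers of D cyclin transcription, 3 of 7 rose and 1 fell in parental B16, 1 of 8 rose in clone 2 and 2 of 8 rose in clone 9. Over all genes 18.5%, 15% and 13.4% rose, so the clone 2 count is at the background. Jun, a component of the AP-1 factor, rose in all lines, by 1.71 (SE 0.23), 1.41 (SE 0.23) and 1.07 (SE 0.23). Myc, named after its values were seen, rose in parental B16 (1.21, adjusted p = 0.00785) and clone 9 (1.25, adjusted p = 0.00838) and had 0.89 in clone 2 (adjusted p = 0.0708). Mitf, the master regulator of melanocytes, was not called in any line. Jun was thus called higher in every line, and Myc in parental B16 and clone 9. Ccnd2 was called lower in parental B16 and clone 9 and was not called in clone 2. Ccnd1 was called higher in parental B16 and clone 2 and stood at -0.06 in clone 9, where it was not called. The part of these inducers in the D cyclin values was not tested.

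Cyclins and the kinase of later phases fell without exception, 5 of 5 in each line, with medians of -1.43, -1.07 and -1.66 in parental B16, clone 2 and clone 9. Ccna2, the S phase cyclin that takes over Cdk2, had -1.43, -1.11 and -1.87. Cdk1, the mitotic kinase, had -1.25, -0.81 and -1.41, and Ccnb2, one of its cyclins, had -1.53, -1.07 and -1.67. Ccnf, a cyclin that serves as a ubiquitin ligase subunit, had -1.51, -1.19 and -1.63. These medians were lower than the values of Cdk2 in the same lines, -1.14, -0.82 and -0.86.

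**Figure D5:**
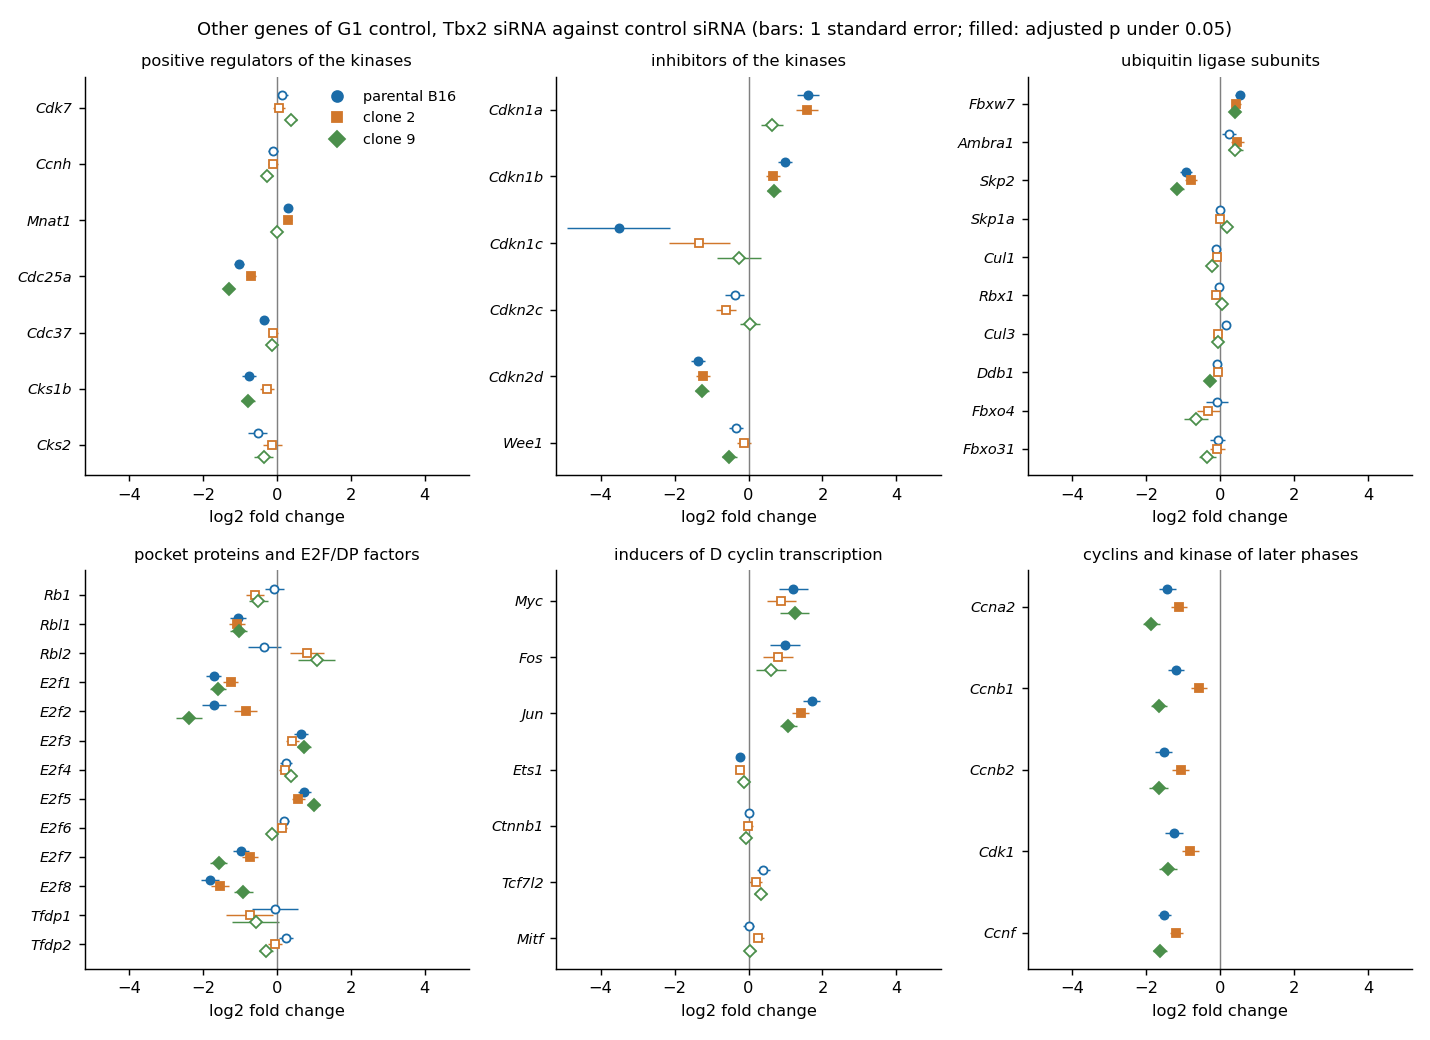
Log2 fold change (x axis, siTbx2 against siCtrl) of the other genes of G1 control and of later phases (y axis) in 6 lists and 3 lines, with 1 SE as bars. Filled symbols have an adjusted p under 0.05, and the genes not tested in every line are left out. All 5 later cyclins and kinase lie below 0 in each line, and among the inhibitors Cdkn1b lies above 0 and Cdkn2d below it.

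For the 3 genes called in every line, the genes with the most similar response were found among 7692 genes with a mean normalized count of at least 50, by the largest difference in log2 fold change over the lines. For Ccne1 these were Spdl1, an adaptor of dynein at kinetochores, and Parp1, the DNA damage enzyme, within 0.03 and 0.04 of it. For Cdk2 they were Idh2, mitochondrial isocitrate dehydrogenase, and Gpr137b, a lysosomal membrane protein gene, within 0.05 and 0.06. For Cdk4 they were Mrpl19, of the mitochondrial ribosome, and Ndufs4, of respiratory complex I, each within 0.02. With only 3 lines per gene, such likeness is a description of 3 values.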

How the data were processed

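RNA was sequenced from 3′ ends (QuantSeq libraries with ERCC spike-ins, biological triplicates per the study's methods) and, per the submitters' processing notes and methods, checked with FastQC 0.11.7, mapped to mm10 with STAR 2.6.1d, counted with featureCounts (Subread 1.6.2) and fitted with DESeq2 1.28.1. The deposited tables hold a normalized signal, the authors' mean normalized count over libraries, which is a pooled value with no error. The deposited log2 fold changes and their standard errors, the Wald score made by the authors as their ratio, and the deposited p-value columns, raw and adjusted by Benjamini-Hochberg, are the authors' own comparisons. They were used because the files hold no value per library, so no fit could be repeated, the depth per sample is unknown, and which libraries entered the fit is not stated. Where labels do not say what a replicate was, p-values measure only the spread between these samples.

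Computed here were 95% normal intervals, the percent of siCtrl (2 to the power of the log2 fold change, times 100), a chi-square test of equal response over 3 lines (2 degrees of freedom), a normal test for each pair of lines, both adjusted over all genes tested, and seed, motif and exon matches (Python 3.11.15, numpy 2.4.6, pandas 2.3.3, scipy 1.17.1). The chi-square test was tried on simulated data with a difference larger than any found between lines among the members. That trial does not show whether differences of the sizes found here would be called. Means over lines were weighted by the inverse of the squared SE, and their intervals leave out the spread between lines. 92 spike-ins were left out. The members and lists were chosen with earlier results of these data known. Named were every member, Tbx2, up to 4 genes per list called the same way in all lines, by size in parental B16, and the 2 genes closest to each member called in all lines. Alternatives were other thresholds, other sets of genes for the adjustment, a test against a change of 0.5, and centring on the median.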

Additional observations from a re-analysis of the deposited data

How the results depend on the processing

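No paired analysis was possible because the tables hold no values per library, and for the same reason no replicate could be left out and no other normalization tried. Of the 48 values of single members recomputed, 47 kept their direction and their side of the threshold, and 1 lost its call, Ccne2 in clone 9 when adjusted over every gene with a p-value (adjusted p = 0.0686). Adjusting anew leaves the log2 fold change itself as it was. Centring took off medians of only -0.013 in parental B16, -0.003 in clone 2 and -0.004 in clone 9. Direction therefore had little room to change, and its being kept is no test of the values. The number of members called was 6 in parental B16, 4 in clone 2 and 6 in clone 9. Tested against a change of 0.5 on the log2 scale it became 2 (Ccne2 and Cdk2), 0 and 0, by construction a stricter test. At an adjusted p under 0.01 it became 5 in parental B16 (Ccnd1 lost), 2 in clone 2 (Ccnd1 and Cdk4 lost) and 5 in clone 9 (Ccne2 lost). With a log2 fold change of at least 0.5 in size it became 5, 2 and 5, and Cdk4 was lost in all lines, with Ccne1 in clone 2. Adjusting over genes with a mean of at least 50 leaves out Ccne2 and Cdk6, whose means are lower. Centring moved no call among the members. The count of members that differ among the lines was 0 under each alternative. The smallest change that could be called was set by the SE, which is large for Cdk6 and Ccne2.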
